A study of Homo sapiens with 4 samples.

Results

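The clustered protocadherin genes are 3 neighbouring gene families on the long arm of chromosome 5. They were taken as the rows of the count table on chromosome 5 whose symbol, matched from the Ensembl identifier, starts with PCDHA, PCDHB or PCDHG. This rule found 53 of the 19901 genes in the table. The PCDHA cluster had 15 genes between 140786135 and 141012347 (hg38), the PCDHB cluster had 16 genes between 141051134 and 141249365, and the PCDHG cluster had 22 genes between 141330570 and 141512981. All 53 lie on the + strand, within a span of 726.8 kb.

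TT-Seq, which sequences RNA made during a short pulse of the nucleoside 4-thiouridine (4sU), was performed in HCT116, a colon cancer cell line. All 4 libraries came from clone D5 of the KAP1 dTAG line, in which endogenous KAP1, the product of TRIM28, carries a degron, so that adding the compound dTAG-13 brings about its breakdown. The controls therefore carry the tagged protein too, and every value describes 1 clone. Cells were treated for 8 h with DMSO, the vehicle (2 libraries), or with 500 nM dTAG-13 (2 libraries, called dTAG), and 500 μM 4sU was then added for 10 min. The comparison asks whether transcription of a gene differed after KAP1 was depleted, and it rests on 2 replicates per group, which the methods call biological replicates.

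Clustered protocadherins are cell-surface proteins of the cadherin superfamily, best known in neurons, where each cell uses its own combination of them and like combinations recognise each other. In the PCDHA and PCDHG clusters, each gene starts with a variable exon that has its own promoter and is spliced to constant exons at the far end of the cluster, which all genes of that cluster share. PCDHB genes have no shared constant exons and are coded by a single exon each. Most of these promoters hold a conserved element around the bases CGCT. CTCF and cohesin bind at the clusters, while DNA methylation, SMCHD1 and the H3K9 methyltransferase SETDB1 are known to keep promoters there silent. KAP1 recruits SETDB1 to many of its target sites.

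The deposited values were raw read counts over whole gene intervals, so the design of these clusters set what could be counted. The methods do not state how reads in overlapping genes were treated. In the table, bases shared by several genes on 1 strand gave next to no counts. Of 489 genes in the whole table with no base free of another gene on the same strand, 475 (97.1%) were at 0 in all 4 libraries, and the highest total over 4 libraries among the remaining 14 was 35. By contrast, of 581 genes that lay wholly within genes of the opposite strand only, 112 (19.3%) were at 0. In the following, free bases are those of a gene that no other counted gene on the same strand covers.

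Since every PCDHA gene runs to the end of its cluster, PCDHA1 was the only PCDHA gene with free bases, 8716 at its 5′ end and 3 at its 3′ end, and the 14 others had none. In the same way PCDHGA1 had 8189 free bases at its 5′ end and 2 at its 3′ end, and the 21 other PCDHG genes had none. These 35 genes, PCDHAC1, PCDHAC2 and PCDHGC3 to PCDHGC5 among them, were at 0 in all 4 libraries. Their 0 is a property of the counting and holds no measurement of their transcription. All 16 PCDHB genes had free bases, 57044 in sum, and 12 of them were free over their whole interval. Free bases made up 3.85% of the span of the PCDHA cluster, 28.8% of that of the PCDHB cluster and 4.49% of that of the PCDHG cluster. The 5′ free stretch of PCDHA1 held 2726 exonic and 5990 intronic bases in GENCODE 44, and that of PCDHGA1 held 4070 exonic and 4119 intronic bases.

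**Figure D1:**
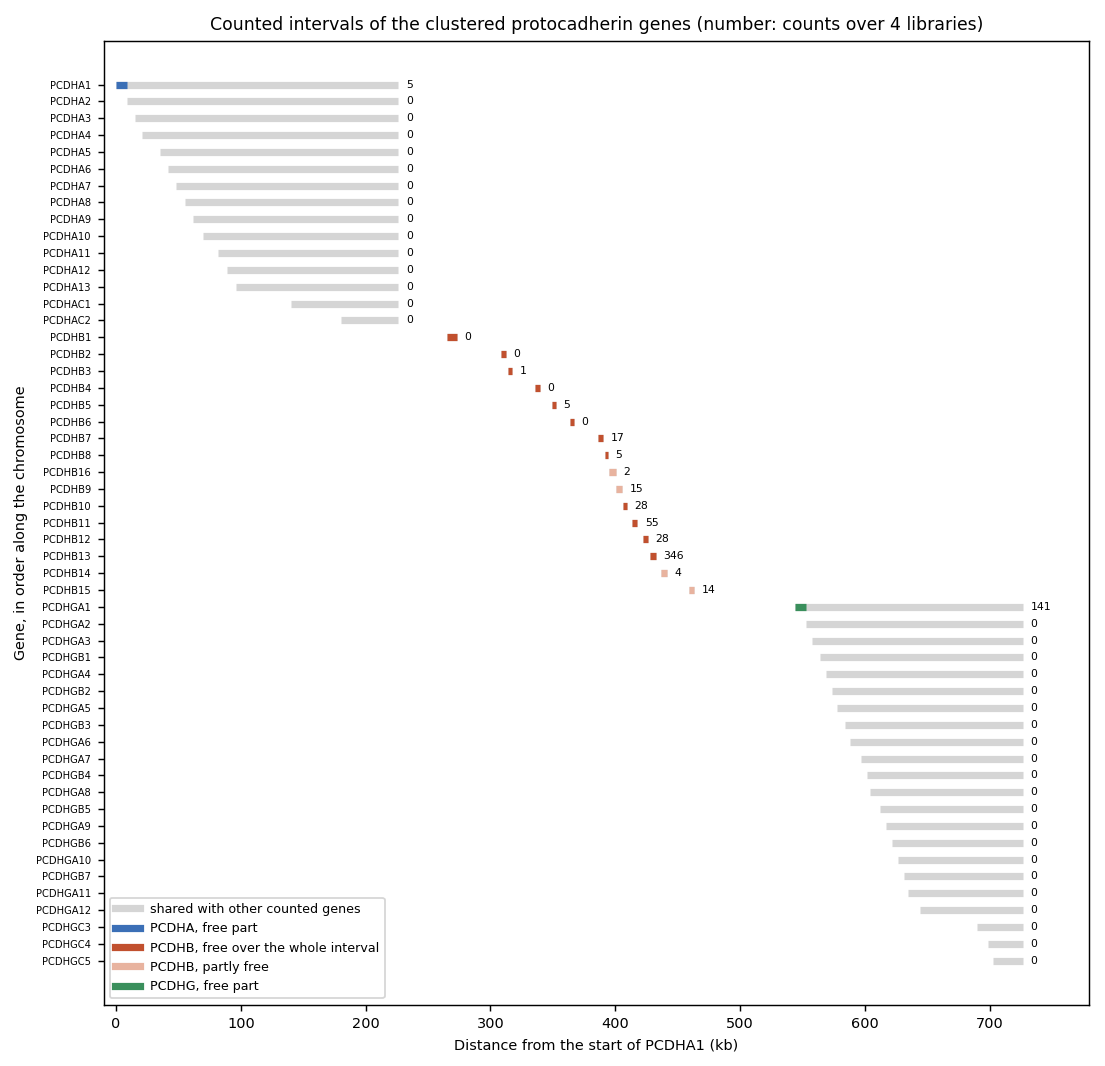
Each bar is the counted interval of 1 gene, plotted against the distance from the start of PCDHA1 in kb, with the sum of its counts over 4 libraries beside it. Coloured bars are free of other genes on the strand (pale for PCDHB genes that are free in part) and grey bars are shared, and the reader should see that the 35 genes without a coloured part are at 0, while PCDHB13 has 346 counts and PCDHGA1 has 141.

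The promoters are shown because the genes that gave counts and the genes that gave none carried the same element. RefSeq windows from 250 bases before to 50 bases after each gene's start (GRCh38.p14) matched 47 of the 53 genes, with no entry for PCDHA3, PCDHA13, PCDHB6, PCDHB11, PCDHGA12 and PCDHGC5. The letters GGTGGCGCT, searched on both strands and chosen after the windows had been viewed, stood in 13 of 14 PCDHB windows, in 0 of 13 PCDHA windows, in 0 of 20 PCDHG windows and in 0.501% of all 35116 windows. PCDHB1 was the PCDHB gene without them. In the 13 windows that held them, they began 2 to 84 bases before the start, with a median of 66. The 250 bases before PCDHB13, the gene with the most counts, are given with these letters in capitals, 43 to 35 bases before the start (chr5:141213669-141213918, + strand):
PCDHB13: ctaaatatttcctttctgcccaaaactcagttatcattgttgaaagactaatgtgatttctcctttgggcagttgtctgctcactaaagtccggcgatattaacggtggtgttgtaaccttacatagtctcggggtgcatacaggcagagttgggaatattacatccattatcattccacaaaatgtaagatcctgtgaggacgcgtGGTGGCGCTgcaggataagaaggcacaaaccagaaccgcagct

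The same element is shown with 26 bases on either side for PCDHB10 (chr5:141192284-141192344), PCDHB12 (chr5:141208628-141208688) and PCDHB7 (chr5:141172551-141172611), which had counts in every library, and for PCDHB2 (chr5:141094529-141094589) and PCDHB4 (chr5:141121708-141121768), which were at 0 in every library, all on the + strand.
PCDHB10: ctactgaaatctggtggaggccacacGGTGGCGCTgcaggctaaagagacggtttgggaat
PCDHB12: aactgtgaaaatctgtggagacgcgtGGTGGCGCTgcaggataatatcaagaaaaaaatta
PCDHB7: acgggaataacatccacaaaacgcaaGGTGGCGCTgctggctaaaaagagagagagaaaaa
PCDHB2: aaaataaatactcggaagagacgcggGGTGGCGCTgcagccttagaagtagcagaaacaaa
PCDHB4: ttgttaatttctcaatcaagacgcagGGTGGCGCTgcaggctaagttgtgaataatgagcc

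PCDHB2 and PCDHB4 held the capitals as PCDHB13 did, so these letters did not separate genes with counts from genes without. The other clusters carried other letters around CGCT, which no plan made beforehand named. Cluster numbers for all these letters count genes with a match in any of their windows, while the percentages of all windows count single windows. ATGTCGCT, also searched on both strands, stood in 9 of 13 PCDHA windows, in 0 of 14 PCDHB windows, in 0 of 20 PCDHG windows and in 0.234% of all windows. CGCTGTT stood in 13 of 20 PCDHG windows, in 1 of 14 PCDHB windows, in 0 of 13 PCDHA windows and in 2.26% of all windows. The core CGCT alone, which all 3 motifs contain, stood in 12 of 13, 14 of 14 and 20 of 20 windows of the PCDHA, PCDHB and PCDHG clusters, beside 70% of all windows. The stretches around these letters are given for the first gene of either cluster, PCDHA1 (chr5:140786072-140786131) and PCDHGA1 (chr5:141330393-141330451), both on the + strand, since these were the genes of their clusters with a countable part.
PCDHA1: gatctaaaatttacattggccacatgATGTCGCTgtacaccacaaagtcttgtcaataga
PCDHGA1: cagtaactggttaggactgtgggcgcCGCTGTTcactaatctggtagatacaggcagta

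The libraries held 93105627 to 102314741 counts on genes, and against this depth the countable protocadherin genes were low. The PCDHB cluster summed to 110 and 169 counts in DMSO and to 133 and 108 in dTAG. PCDHGA1, and with it the PCDHG cluster, had 46 and 29 counts in DMSO and 35 and 31 in dTAG. PCDHA1, and with it the PCDHA cluster, had 0 and 5 counts in DMSO and 0 and 0 in dTAG. Of the 18 genes with a free base, 14 had a count in some library, 7 (6 PCDHB genes and PCDHGA1) had a count in every library, 2 (PCDHB13 and PCDHGA1) reached 10 counts in each of the 4 and PCDHB13 alone reached 50. In this bulk assay, fewer transcribing cells and less RNA per cell cannot be told apart.

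PCDHB13 (141213918 to 141218979), which codes for a member of the beta family, stood above the rest of its cluster. It had 78 and 115 counts in DMSO and 79 and 74 in dTAG. These were 346 of the 520 PCDHB counts, 66.5% (95% Wilson interval, 62.4 to 70.5), and between 59.4% and 70.9% in single libraries. Intervals of this kind cover counting error only, since the reads carried no molecular identifiers. Per kb of free bases, PCDHB13 had between 14.6 and 22.7 counts in a library. No other PCDHB gene reached 7 counts per kb in any library, the highest being PCDHB14 with 6.82 in dTAG replicate 2, from 3 counts in 440 free bases, and PCDHB11 with 5.24 in DMSO replicate 2. PCDHB13 was therefore above every other PCDHB gene in each of the 4 libraries.

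**Figure D2:**
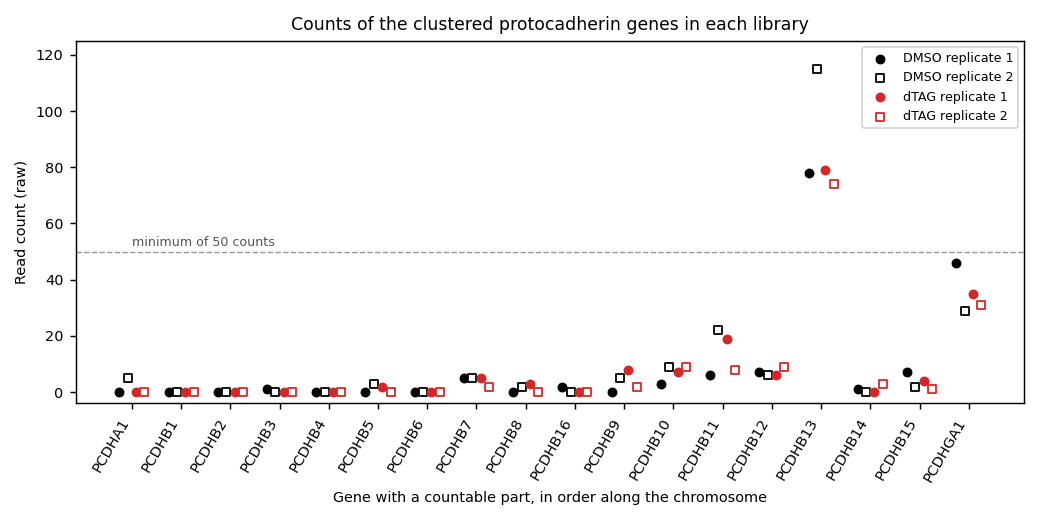
Raw read counts (vertical axis) of the 18 genes with a countable part, in order along the chromosome, with 1 point per library (black for DMSO, red for dTAG) and a dashed line at the minimum of 50 counts used for testing. PCDHB13 lies above the line in all 4 libraries, PCDHGA1 lies between 29 and 46, and the other genes lie at 22 or below.

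The second PCDHB gene by counts was PCDHB11, with 6 and 22 counts in DMSO and 19 and 8 in dTAG. PCDHB12 had 7 and 6 counts in DMSO and 6 and 9 in dTAG, and PCDHB10 had 3 and 9 in DMSO and 7 and 9 in dTAG. For each of these 3 genes the groups overlapped. PCDHB7 had 5 and 5 counts in DMSO and 5 and 2 in dTAG, PCDHB15 had 7 and 2 in DMSO and 4 and 1 in dTAG, and PCDHB9 had 0 and 5 in DMSO and 8 and 2 in dTAG. Over all 4 libraries, PCDHB11 had 13.1 counts per kb of free bases, PCDHB10 had 8.51, PCDHB12 had 7.22, PCDHB9 had 5.07, PCDHB7 had 4.51 and PCDHB15 had 4.00. Each gene in this order overlapped the next in its range over libraries, so neighbours in the order below PCDHB13 did not differ beyond their spread. PCDHB14 and PCDHB16, of which 440 and 1010 bases were free, had 4 and 2 counts in all.

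Counts within the PCDHB cluster lay in its 3′ part. The 6 genes from PCDHB1 to PCDHB6, between 141051134 and 141153287, had 6 counts over 4 libraries in 26196 free bases, or 0.229 per kb. PCDHB5 gave 5 of them and PCDHB3 gave 1, while PCDHB1, PCDHB2, PCDHB4 and PCDHB6 were at 0 in every library. A count of 0 allows up to 3 counts over the DMSO group, which for these 4 genes corresponds to levels of up to 0.00184, 0.00366, 0.00394 and 0.00462 CPM (counts relative to the TMM-scaled library total) per kb. The 10 genes from PCDHB7 to PCDHB15 (with PCDHB16, which lies between PCDHB8 and PCDHB9) had 514 counts in 30848 free bases, or 16.7 per kb, and none of them was at 0 in all libraries. Without PCDHB13 the remaining 9 of these genes still had 168 counts, or 6.52 per kb. The division into these parts was made after the counts were seen, and no test was run on it.

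Part of the sequence of these genes was repeated within the span of the clusters. Reads were paired-end and no alignment was examined, so the share of reads that could not be placed is not known. Windows of 50 bases, the length of 1 read, were compared only within the span of the clusters, on both strands. Those repeated elsewhere in hg38 still count as unique, so the shares of unique windows are upper limits. Within the span, 76.3% of windows were unique for PCDHB13, 85.9% for PCDHB11, 86.9% for PCDHB12, 64.6% for PCDHB10 and 52.7% for PCDHB8. PCDHB13 shared 888 windows with PCDHB8, which were 17.7% of its own and 33.0% of those of PCDHB8. PCDHB9 and PCDHB10 shared 753 windows, 17.2% and 23.2% of their own. How reads that map to several places were counted is not given in the sources used here, so counts of these pairs are uncertain where reads could be split between them. PCDHB1, with 99.9% of its windows unique within the span and 8211 free bases, was at 0. Its windows were not searched in the rest of hg38.

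On the scale of the whole table, the mean level of PCDHB13 in DMSO was 0.192 CPM per kb of free bases. This lay at the 42.0th percentile of the 18546 genes with at least 1000 free bases, and at the 14.6th percentile of the 12503 of them that passed the minimum of 50 counts, whose median was 1.11. PCDHGA1 had 0.0461 CPM per kb in DMSO, at the 34.4th and 5.51th percentile of the same genes. Olfactory receptor genes, a group that a colon line has little known use for and that was chosen after values were seen, gave a floor for comparison. Of 352 such genes that were free over their whole interval, 80.1% were at 0 in all libraries, and their 90th percentile was 0.676 counts per kb over 4 libraries. Of the 15 PCDHB genes with at least 1000 free bases, 4 were at 0, and the median was 1.98 counts per kb. The highest olfactory receptor gene had 71.8 counts per kb, so PCDHB13 with 68.4 was not outside the range of that group.

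Genes around the clusters were transcribed at higher levels. Of 32 other genes in the table within 500 kb of the span, 24 passed the minimum, and their mean DMSO levels ranged from 0.157 to 5.06 CPM per kb of free bases with a median of 1.62. PCDHB13 was below 23 of these 24. ZMAT2, the last tested gene before the PCDHA cluster, had 5.06 CPM per kb, and TAF7, a subunit of TFIID that lies between the PCDHB and PCDHG clusters on the opposite strand, had 1.30. DIAPH1, a formin gene that follows the PCDHG cluster, lay between them. SLC25A2, a mitochondrial ornithine carrier between the PCDHB and PCDHG clusters, had no free base and was at 0.

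**Figure D3:**
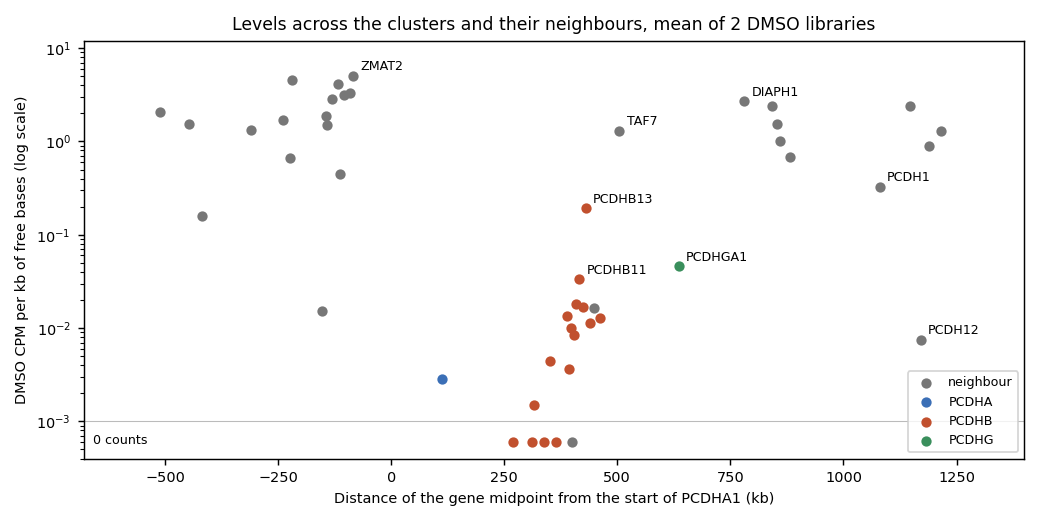
Mean DMSO level in CPM per kb of free bases (log scale) against the distance of each gene's midpoint from the start of PCDHA1 in kb, for countable clustered protocadherin genes (coloured) and neighbours (grey), with ANKHD1, EIF4EBP3 and SLC25A2 left out for their few or missing free bases and points under the line standing for 0 counts. PCDHB13, at 0.192, is the highest coloured point and lies below TAF7, at 1.30.

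Further entries of the table overlap the PCDHB cluster. They are listed under an Ensembl identifier without a symbol, on the same strand. ENSG00000279983 covers parts of PCDHB14 and PCDHB15 and had 25 and 32 counts in DMSO and 18 and 32 in dTAG, so its groups overlapped. ENSG00000279068 covers parts of PCDHB16 and PCDHB9 and had 5 counts, all in dTAG replicate 1. The covered parts of these 4 genes are not among their free bases.

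Of the clustered protocadherin genes, 1 could be tested at the minimum of 50 counts, and no difference between dTAG and DMSO was detectable for it. PCDHB13, the single gene of the 53 that passed the minimum of 50 counts in all 4 libraries, had 0.970 ± 0.258 CPM in DMSO and 0.804 ± 0.0221 in dTAG (SD, n = 2). The CPM of its groups overlapped, with 0.788 and 1.15 in DMSO and 0.789 and 0.820 in dTAG. Its log2 fold change was −0.27 with a standard error of 0.28 and a 95% interval from −0.85 to 0.31, and its adjusted p was 0.548 in edgeR's quasi-likelihood test, adjusted by Benjamini-Hochberg over 12612 genes. As a fold, this interval runs from 0.556 to 1.24 of the DMSO level. Of all tested genes, 7.1% were called, which means an adjusted p under 0.05, with 3.44% higher and 3.66% lower in dTAG, beside 0 of 1 for the clusters. The unadjusted p of PCDHB13 was 0.34 in this test and 0.50 in DESeq2. The direction rested on DMSO replicate 2, without which the log2 fold change was 0.029, and it was 0.45 when each library was scaled to its total of ERCC RNAs, a spike-in whose counts were 0.0103% to 0.0265% of those on genes.

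PCDHGA1, the first gene of the PCDHG cluster, entered the fit once the minimum was lowered to 10 counts, in which 6.05% of 13865 genes were called (3.12% higher and 2.94% lower). It had 0.378 ± 0.123 CPM in DMSO and 0.347 ± 0.0042 in dTAG (SD, n = 2). Its log2 fold change was −0.12 with a standard error of 0.39, a 95% interval from −0.92 to 0.68 and an adjusted p of 0.873 in edgeR's quasi-likelihood test. Without DMSO replicate 1 its log2 fold change was 0.26. As a fold, the interval at the minimum of 10 runs from 0.529 to 1.61 of the DMSO level.

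**Figure D4:**
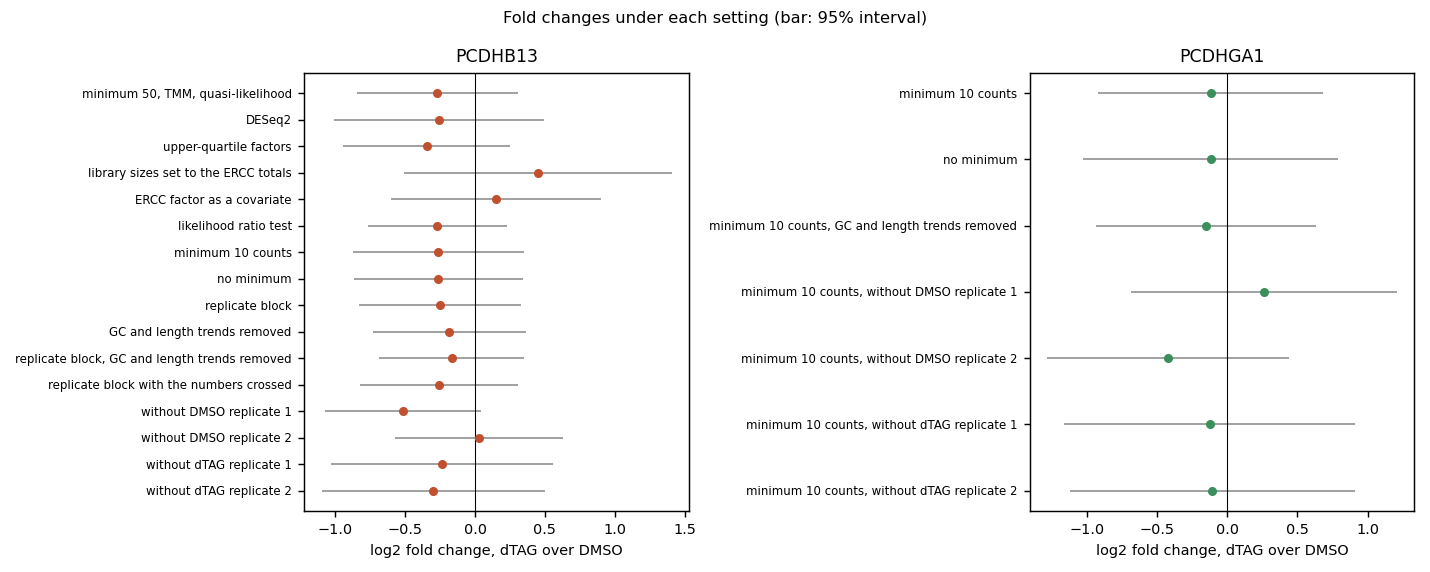
The log2 fold change of PCDHB13 (left) and PCDHGA1 (right), dTAG over DMSO, with 95% intervals, for each setting of normalization, test, minimum, block and library left out. Every interval covers 0, and the value of PCDHB13 moves between −0.52 and 0.45.

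With no minimum, 14 of the 53 genes entered the fit and 0 were called, beside 8.12% of 17450 genes (3.86% higher and 4.26% lower). The lowest adjusted p among the 14 was 0.413 in edgeR's quasi-likelihood test. Of the 14, 0 had an unadjusted p under 0.05 in that test, beside 3827 of all 17450. The fitted difference of the 14 genes was positive for 6 and negative for 8. Most of these genes had counts below 10 in every library, where a difference was not detectable at this depth.

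The summed CPM of the dTAG libraries of either countable cluster lay within the range of its DMSO libraries. Summed CPM of the PCDHB cluster was 1.11 and 1.69 in DMSO and 1.33 and 1.20 in dTAG, a log2 ratio of the means of −0.15, which became 0.18 without DMSO replicate 2, −0.42 without DMSO replicate 1 and 0.56 when libraries were scaled to the ERCC totals. For the 15 PCDHB genes other than PCDHB13, the sums were 32 and 54 counts in DMSO and 54 and 34 in dTAG, and the log2 ratio of the CPM was 0.084. For the PCDHG cluster, which is PCDHGA1, it was −0.12, and it became 0.25 without DMSO replicate 1, −0.42 without DMSO replicate 2 and 0.44 with the ERCC totals. The PCDHA cluster had too few counts for a ratio. No test was run on these sums.

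Neighbours on either side of the clusters gave 0 calls of 24 tested in edgeR's quasi-likelihood test, beside 7.1% called of all tested genes. DESeq2 also called 0 of them, beside 1252 of all 12612 genes. The unadjusted p in the quasi-likelihood test was under 0.05 for 5 of the 24, beside 3355 of the 12612. Log2 fold changes of the neighbours ranged from −0.45 for PCDH1 to 0.19 for DIAPH1, with a median of −0.077 beside −0.015 for all 12612 tested genes. The groups did not overlap for 10 of the 24, beside 58.8% of all tested genes. TAF7 had 6891 and 8440 counts in DMSO and 7617 and 7051 in dTAG.

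Non-clustered protocadherins stand outside the 3 clusters as single genes with introns. They gave 0 calls of 4 tested in edgeR's quasi-likelihood test, beside 7.1% called of all tested genes, and 0 in DESeq2, beside 1252 of 12612. The unadjusted p in the quasi-likelihood test was under 0.05 for 2 of the 4, beside 3355 of the 12612. PCDH7 was the highest of these protocadherins, with 73719 and 60330 counts in DMSO and 65448 and 63431 in dTAG, and its log2 fold change was 0.0079. Its direction turned in other settings, and it was called lower with the ERCC factor as a covariate, at −0.24, and with the trends on GC content and length removed, at −0.15. At 1.58 CPM per kb in DMSO it was above PCDHB13. PCDH1, which lies downstream of the PCDHG cluster, had 856 and 853 counts in DMSO and 735 and 471 in dTAG. Both dTAG libraries of PCDH1 were below both DMSO libraries, and its log2 fold change was −0.45 with an adjusted p of 0.0917 in edgeR's quasi-likelihood test, which ranged from 0.00482 to 0.956 over the alternatives. The call was made with no minimum, with the likelihood ratio test, with the replicate numbers crossed and without either DMSO library, and its log2 fold change was −0.72 without dTAG replicate 1, −0.23 without dTAG replicate 2, −0.29 with the trends on GC content and length removed and 0.16 with the ERCC totals. PCDH19, mutated in a form of epilepsy, had 226 and 199 counts in DMSO and 121 and 157 in dTAG, with a log2 fold change of −0.54 and an adjusted p of 0.157 in edgeR's quasi-likelihood test. It was called with the trends on GC content and length removed, at −0.67, and its log2 fold change was −0.29 without dTAG replicate 1, −0.82 without dTAG replicate 2, −0.84 with the ERCC factor and 0.12 with the ERCC totals. PCDH11X had a log2 fold change of −0.12. The other 8 of the 12 were under the minimum, with PCDH12 at 17 and 22 counts in DMSO and 7 and 4 in dTAG, and PCDH8, PCDH18 and PCDH20 at 0, the last with 173 free bases.

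Of 22 genes listed as chromatin regulators, all were tested. Whether each of them acts at the clusters was not examined. In dTAG, 0 were called higher and 2 were called lower, with a median log2 fold change of 0.042. In either direction, 2 of 22 lies near the 7.1% called of all tested genes, of which 3.44% were called higher and 3.66% lower. TRIM28, the gene of KAP1 itself, had 6107 and 6959 counts in DMSO and 5357 and 4321 in dTAG. Both dTAG libraries were below both DMSO libraries, with a log2 fold change of −0.37, a standard error of 0.092 and an adjusted p of 0.0189 in edgeR's quasi-likelihood test. Since dTAG-13 acts on the protein, the RNA of TRIM28 does not check the labels. ATF7IP, a partner of SETDB1, had 23989 and 20330 counts in DMSO and 16573 and 17047 in dTAG, with a log2 fold change of −0.33, a standard error of 0.099 and an adjusted p of 0.0473 in the same test. Both calls were lost when libraries were scaled to the ERCC totals, where the log2 fold changes were 0.28 and 0.29. Both were also lost without dTAG replicate 1 and without dTAG replicate 2, with log2 fold changes of −0.45 and −0.30 for TRIM28 and −0.24 and −0.43 for ATF7IP. With the trends on GC content and length removed, TRIM28 fell by 0.10 on the log2 scale with an adjusted p of 0.173 in edgeR's quasi-likelihood test, and with the ERCC factor it fell by 0.19 with an adjusted p of 0.128. ATF7IP had an adjusted p of 0.0531 at a minimum of 10 in that test. SMCHD1 had a log2 fold change of 0.31 with an adjusted p of 0.0645 in the quasi-likelihood test, and SETDB1 had 0.045. CTCF had a log2 fold change of 0.022, and the cohesin subunit gene RAD21 had 0.040.

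Of 10 genes for cytoplasmic partners of protocadherins, 1 was called, beside 7.1% of all tested genes. FYN, a SRC family kinase, was higher in dTAG, with 5511 and 5259 counts in DMSO and 6993 and 7310 in dTAG. Its log2 fold change was 0.48 with a standard error of 0.091 and an adjusted p of 0.00312 in edgeR's quasi-likelihood test, and without dTAG replicate 2 it was 0.37 with an adjusted p of 0.620. Scaled to the ERCC totals it was 1.13 with an adjusted p of 0.472 in the same test. PTK2, a focal adhesion kinase, had a log2 fold change of 0.12, and PTK2B had −0.081. The median of the list was 0.12.

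**Figure D5:**
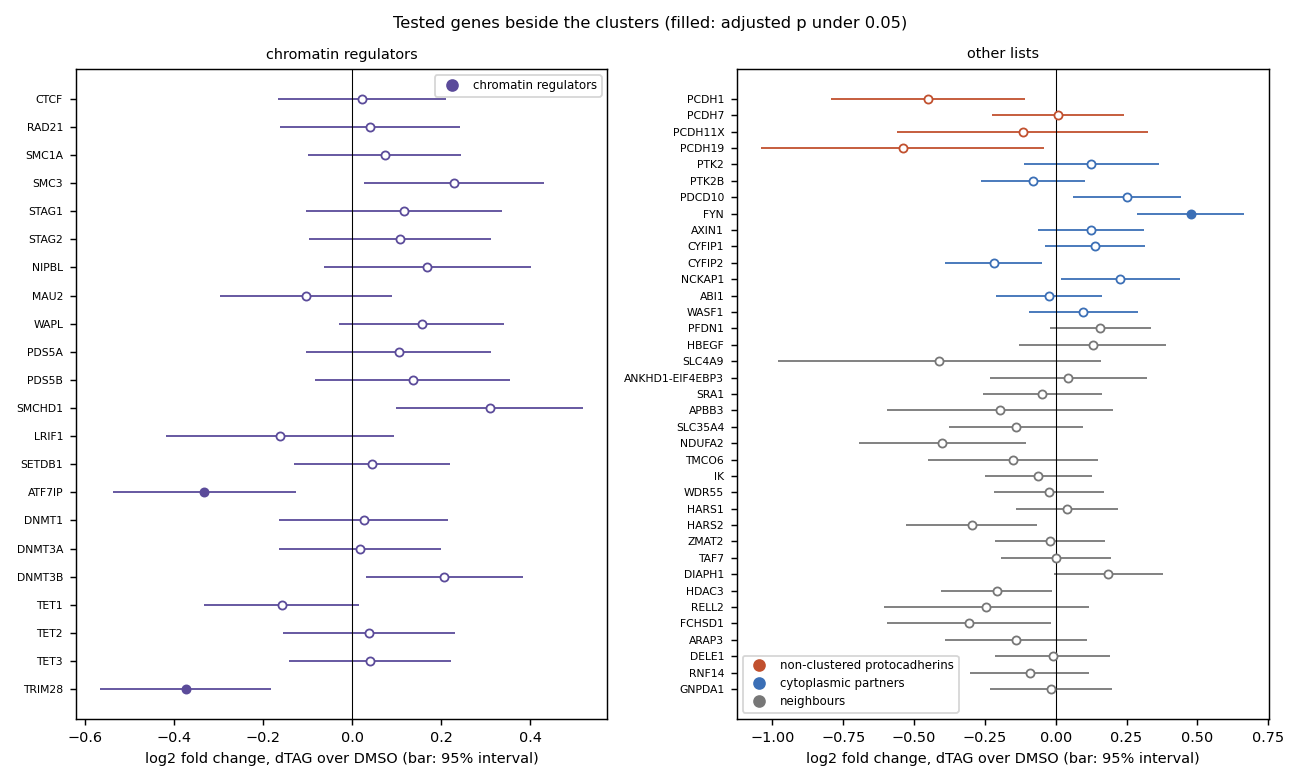
Log2 fold change, dTAG over DMSO, with its 95% interval for tested chromatin regulators (left) and for tested non-clustered protocadherins, cytoplasmic partners and neighbours (right), where filled points passed an adjusted p under 0.05. TRIM28 at −0.37, ATF7IP at −0.33 and FYN at 0.48 are the filled points, and the 23 grey neighbours and PCDH1 are open.

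Markers of the labelled colon epithelial line were present. All 7 passed the minimum, with EPCAM at 133 ± 0.630 CPM in DMSO and 138 ± 3.25 in dTAG (SD, n = 2). Of the 7, 1 was called, ELF3, beside 7.1% of all tested genes. Its log2 fold change was −0.41 with an adjusted p of 0.0179 in edgeR's quasi-likelihood test, and alternatives are not given for it. Of 6 neuronal markers, 3 were under the minimum, with DCX and STMN2 at 1 count each over 4 libraries and SNAP25 at 40 and 24 in DMSO and 37 and 31 in dTAG. Their summed level was 36.4 to 41.1 CPM in DMSO and 37.9 to 40.8 in dTAG, most of it MAP2. Of the leukocyte markers, PTPRC had 1 count in all, and of the fibroblast markers, COL1A2 and LUM were at 0, while CD68 had 332 to 415 counts and COL1A1 had 420 to 538.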

How the data were processed

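TT-Seq counts from HCT116 KAP1 dTAG clone D5 were used for 4 libraries, grouped by the treatment label. Reads were paired-end of 50 bp. The authors used Trim Galore 0.6.4 for trimming, STAR 2.7.3a for alignment (hg38) and featureCounts from Subread 1.6.3 for counting over whole protein-coding genes and 92 ERCC RNAs. FastQC 0.11.8 and edgeR 3.40.1 also stand in the submitters' processing notes. The deposited values are raw counts, without normalization. Strand and overlap settings are not given in the sources used here and were read from the table. Of 19901 genes, 19802 matched an identifier in GENCODE 44. Gene counts of 93105627 to 102314741 per library and 2 replicates limit the precision.

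The 12612 genes that reached 50 counts in every library were fitted in R 4.3.3 with edgeR 4.0.16 (TMM, quasi-likelihood test, two-sided, Benjamini-Hochberg adjustment over all tested genes). CPM used TMM library sizes. Tables were made in Python 3.11.15. The test functions were tested on simulated data. Alternatives were DESeq2 1.42.0, upper-quartile factors and ERCC totals as library sizes. Another was an ERCC factor written out after the RUVg method from the 14 ERCC RNAs over the minimum. Further ones were a likelihood ratio test, a minimum of 10 or none, a replicate block and removal of GC and length trends (lowess, span 0.3). The block was also run with the trends removed, and each library was left out in turn. A crossed block and further settings for PCDHGA1 were added after seeing the data. Same-numbered libraries deviated with a correlation of -0.247, and the labels tie them to no shared batch, so they were not taken as pairs.

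Every gene of the clusters is accounted for. Values are given for called genes, the 5 highest of each cluster per kb, TRIM28 and called genes of the lists. The genes and lists were chosen with earlier results of these data known, and further genes named with values (PCDH1, PCDH12, SMCHD1 and others) were chosen after their values were seen. The alternative for nested counts was not run, since the counts were not nested. All columns of the table were used.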

Additional observations from a re-analysis of the deposited data

How the results depend on the processing

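In all 15 alternatives, 0 clustered protocadherin genes were called, but few could be. In DESeq2 none of these genes could be called, since the tested one had no adjusted p. PCDHB13 was the only one tested, except that PCDHGA1 joined it at a minimum of 10 and 14 genes were in the fit with no minimum, so the 0 says nothing about stability for the other genes. The log2 fold change of PCDHB13 was -0.27 and kept its direction in all but 3 of 15 alternatives. It was 0.45 with libraries scaled to the ERCC totals, 0.15 with the ERCC factor, and -0.52 to 0.029 when single libraries were left out, where it turned positive without DMSO replicate 2. Its adjusted p lay between 0.128 and 0.969 over the edgeR settings, and DESeq2 gave none. With the replicate block it was -0.25, with the block and the GC and length trends removed it was -0.17, and with the block crossed it was -0.26. For PCDHGA1, values without single libraries ran from -0.42 to 0.26, turning positive without DMSO replicate 1. The log2 ratio of summed CPM moved to 0.56 for PCDHB and 0.44 for PCDHG with the ERCC totals, and ran from -0.42 to 0.18 and from -0.42 to 0.25 when single libraries were left out. The cause of these shifts was not tested.

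Calls in the lists moved between settings. So did the calls over all tested genes, which were most frequent without DMSO replicate 1. Calls among non-clustered protocadherins (0 of 4) became 1 with the ERCC factor (PCDH7), 1 with the likelihood ratio test (PCDH1), 1 with no minimum (PCDH1), 2 with GC and length trends removed, 2 with that and the block (both times PCDH7 and PCDH19), 1 with the crossed block and 0 to 1 without single libraries. Among chromatin regulators (2 of 22) they became 0 with the ERCC totals, 1 with a minimum of 10, 0 with the block (adjusted p of 0.0589 for TRIM28 and 0.168 for ATF7IP, edgeR), 7 with trends removed, 6 with the block and trends removed, 5 with the crossed block and 0 to 11 without single libraries. Among cytoplasmic partners (1 of 10) they became 2 with upper-quartile factors, 0 with the ERCC totals, 4 with the ERCC factor, 5 with trends removed, 5 with the block and trends removed, 4 with the crossed block and 0 to 6 without single libraries. Among neighbours (0 of 24) they became 1 with the ERCC factor, 2 with the likelihood ratio test, 3 with no minimum, 2 with trends removed, 3 with the block and trends removed, 4 with the crossed block and 0 to 10 without single libraries, the highest without DMSO replicate 1. With the ERCC totals the log2 fold changes of TRIM28 and ATF7IP reversed to 0.28 and 0.29, while the median of all tested genes moved to 0.63. Over all 12612 tested genes, 895 calls became 340 with the block, 3190 with the block crossed, 1252 with DESeq2 and 1593 with the likelihood ratio test. They became 1322 with the ERCC factor, 1124 with upper-quartile factors, 2284 with trends removed and 2627 with the block and trends removed. With the ERCC totals they became 0, where 229 genes had an unadjusted p under 0.05 in edgeR's quasi-likelihood test. A minimum of 10 gave 839 calls of 13865 genes, and no minimum gave 1417 of 17450. Upper-quartile factors called 255 genes higher and 869 lower, against 434 and 461 with TMM. Leaving out 1 library gave 69 to 5491 calls, and the lone library of its group was then assumed to vary like the others. Per kb of its whole interval, PCDHGA1 had 0.00207 CPM in DMSO against 0.0461 per kb of free bases. Depth limits the genes below 10 counts, and medians of the clusters are not given, since 1 gene was tested.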
